A study of Drosophila melanogaster with 18 samples.

Results

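The RR-family cuticle protein genes of *Drosophila melanogaster* were followed across 9 conditions of the wild-type w1118 strain. The genes were taken from the count table by their FlyBase symbols: those that begin with Cpr, Lcp or Ccp84A and a number or letter of a locus, and Edg78E, Edg84A, Edg91, Pcp, Acp1 and Acp65Aa. This gave 100 of the 17825 genes in the table, 98 of them coding and 2 of them pseudogenes (Lcp1Psi and Lcp65APsi). Their names hold 70 Cpr genes, 17 Lcp genes (larval cuticle protein), 7 Ccp84A genes, 3 Edg genes (ecdysone-dependent genes), 2 Acp genes (adult cuticle protein) and Pcp (pupal cuticle protein).

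Insect cuticle is chitin fibres embedded in protein, and most of its structural proteins carry the Rebers and Riddiford (RR) consensus, a stretch that binds chitin. Epidermal cells secrete these proteins at each moult, and a fly builds a different cuticle as an embryo about to hatch, as a larva, as a pupa and as an adult. The protein genes lie in tandem clusters, and pulses of the steroid ecdysone time the moults.

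Whole animals, with no sex given, were sequenced as embryos (18 h), as third-instar larvae in the wandering phase and as adults (24 h). Adults of each sex were also parted in liquid nitrogen into heads and bodies (the thorax with the abdomen). Gonads, the testes or the ovaries, were dissected apart from this, from fresh flies. The methods name no removal of the gonads from the bodies. Each of the 9 conditions had 2 libraries, all from the same isogenic strain with no treatment. The labels and the methods give the adult age as 24 h, while the study's text on its results names a younger age for the whole adults, so the age of these flies is uncertain. The 6 libraries of the stages and the 12 libraries of the adult parts came from different library protocols and were fitted apart. Nothing in the labels says whether the 2 libraries of a condition came from separate cultures or flies, so the p-values measure the spread between these libraries, which may be technical.

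The libraries held between 37198249 and 87676051 counts. Photoreceptor genes (ninaE, trp and inaD) summed to between 25381 and 40914 CPM in the heads (counts scaled to 1000000 per library after TMM scaling) and to at most 70.7 CPM in the other adult parts. Testis genes (Mst87F, dj and can) summed to between 1773 and 3426 CPM in the testes and to between 678 and 1172 CPM in the male bodies. The accessory gland gene Acp26Aa stood at 2123 and 2659 CPM in the testis libraries and at 840 and 1298 CPM in the male bodies. Ovary genes (osk and otu) summed to between 1078 and 1420 CPM in the ovaries and to between 655 and 935 CPM in the female bodies. Gonad marker RNA was thus present in the body libraries, and accessory gland marker RNA in the testis libraries. Larval serum protein and glue genes summed to 55667 and 96319 CPM in the larvae and to at most 380 CPM elsewhere.

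The genes were small and clustered. All 100 lay at the same positions in the files as in the Ensembl annotation, 48 of them on chromosome arm 3L, 27 on 2R, 14 on 3R, 7 on 2L and 4 on X. With a gap of at most 20 kb between neighbours, 75 of them fell into 14 clusters and 25 stood alone. The largest clusters were 65A with 19 genes (3L, 6130386 to 6161589), 49A with 8 (2R, 12376626 to 12415170), 84A with 8 (3R, 6684445 to 6704903), 47E with 7 (2R, 11251751 to 11278445) and the Lcp1 to Lcp4 locus with 5 (2R, 8430115 to 8438495). Coding genes had a median of 156 codons, from 92 to 1231 (Cpr76Bd), and 66 of the 98 had 2 exons.

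Not every gene could be read. The counts leave out stretches that another gene covers: all 3490 genes of the table that are wholly covered by others had 0 counts in every library. Among the cuticle protein genes 8 were of this kind, namely Pcp (inside Gart), Cpr57A, Cpr64Aa, Cpr64Ab, Cpr64Ac, Cpr64Ad, Cpr67Fb and Cpr11B, and nothing can be said of their levels. A further 6 were covered in part, Cpr73D over 71.7% of its span, Cpr51A over 36.3%, Cpr56F over 28.1%, Cpr50Ca over 14.7%, Cpr47Ea over 9.9% and Lcp9 over 2%. Levels within the near-identical sets Lcp1 and Lcp2, Lcp65Ab1 and Lcp65Ab2, Lcp65Ag1 to Lcp65Ag3, Cpr65Ax1 and Cpr65Ax2, and Cpr67Fa1 and Cpr67Fa2 are uncertain, since reads that fit several copies could have been split or dropped. Of the 100 genes, 90 had at least 10 counts in some library.

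Cuticle protein genes took their largest share of the RNA in larvae. They held 3.23% and 3.02% of all counts in the 2 larval libraries, 1.59% and 1.58% in the embryos and 0.559% and 0.617% in the whole adults. Fewer genes made up the larval share: 86 of the genes had at least 10 counts in both embryo libraries, 63 in both larval libraries and 52 in both whole adult libraries. The 5 most counted genes held 46.6% and 48.7% of the cuticle protein counts in embryos, but 89.2% and 86.6% in larvae and 75.95% and 75.5% in whole adults. In the adult parts the share was 0.878% and 1.05% in male bodies, 0.551% and 0.500% in female bodies, 0.336% and 0.503% in male heads, and 0.321% and 0.535% in female heads. It was below 0.02% in both testis libraries and below 0.008% in both ovary libraries. These are shares of counts, so fewer cells of a type and less RNA per cell cannot be told apart in them or in any level given here.

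**Figure D1:**
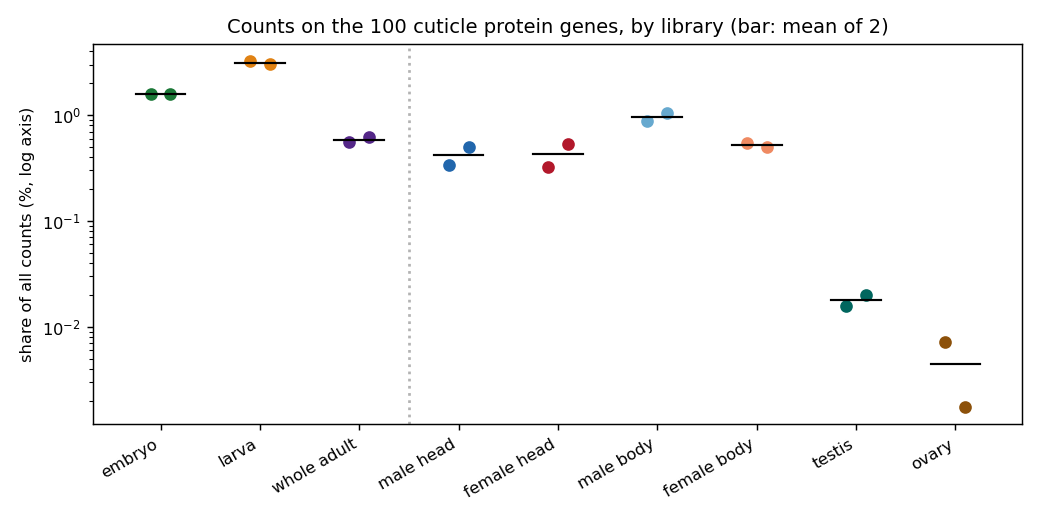
Share of all counts on the 100 cuticle protein genes (percent, log axis) for each library, with 2 points per condition and a bar at their mean. Larvae stand highest with a mean of 3.13%, and the points left of the dotted line come from a different library protocol than those to its right.

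Between the stages most of the tested genes changed, and more of them were lower in the later stage. A gene was called when its adjusted p in edgeR's quasi-likelihood test was under 0.05, with a fold change of at least 2 either way (1 on the log2 scale), and 88 of the 100 had enough counts to be tested. From embryos to larvae 21 rose and 52 fell, where 31.7% of all tested genes rose and 19.3% fell. From larvae to whole adults 26 rose and 44 fell, against 23.1% and 17.8% of all tested genes. Whole adults compared with embryos had 17 genes higher and 51 lower, against 29.7% and 19.0%. The median log2 fold change over the tested genes was -2.14 from embryos to larvae, -1.495 from larvae to whole adults and -4.30 for whole adults over embryos, beside medians of 0.31, -0.02 and 0.11 over all genes tested. With genes at 0 counts in a group set to their bound, the last of these was -3.98. Genes that passed the filter on low counts only through 1 high stage had to differ between stages, so these counts describe the tested genes and not the family as a whole.

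The changes were large. Of the 88 genes, 48 were called in all 3 stage comparisons, 32 in 2, 3 in 1 and 5 in none. The called changes had a median absolute log2 fold change of 4.92 between embryos and larvae, 6.24 between larvae and whole adults and 6.92 between embryos and whole adults. By these calls 35 genes were higher in embryos than in both other stages, 19 in larvae and 16 in whole adults. A further 6 were higher in embryos and whole adults than in larvae, 3 were higher in embryos and larvae than in whole adults, 1 was higher in larvae and whole adults than in embryos, and 8 fitted none of these. The calls per gene, the sizes and the classes were not worked out over all tested genes. They describe these genes and do not set them apart from others. Groups of genes that share a name were spread unevenly over these classes. Of the 15 tested Lcp genes 8 were highest in larvae and 5 in embryos, the 7 Ccp84A genes were all highest in embryos, and both Acp genes were highest in whole adults.

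**Figure D2:**
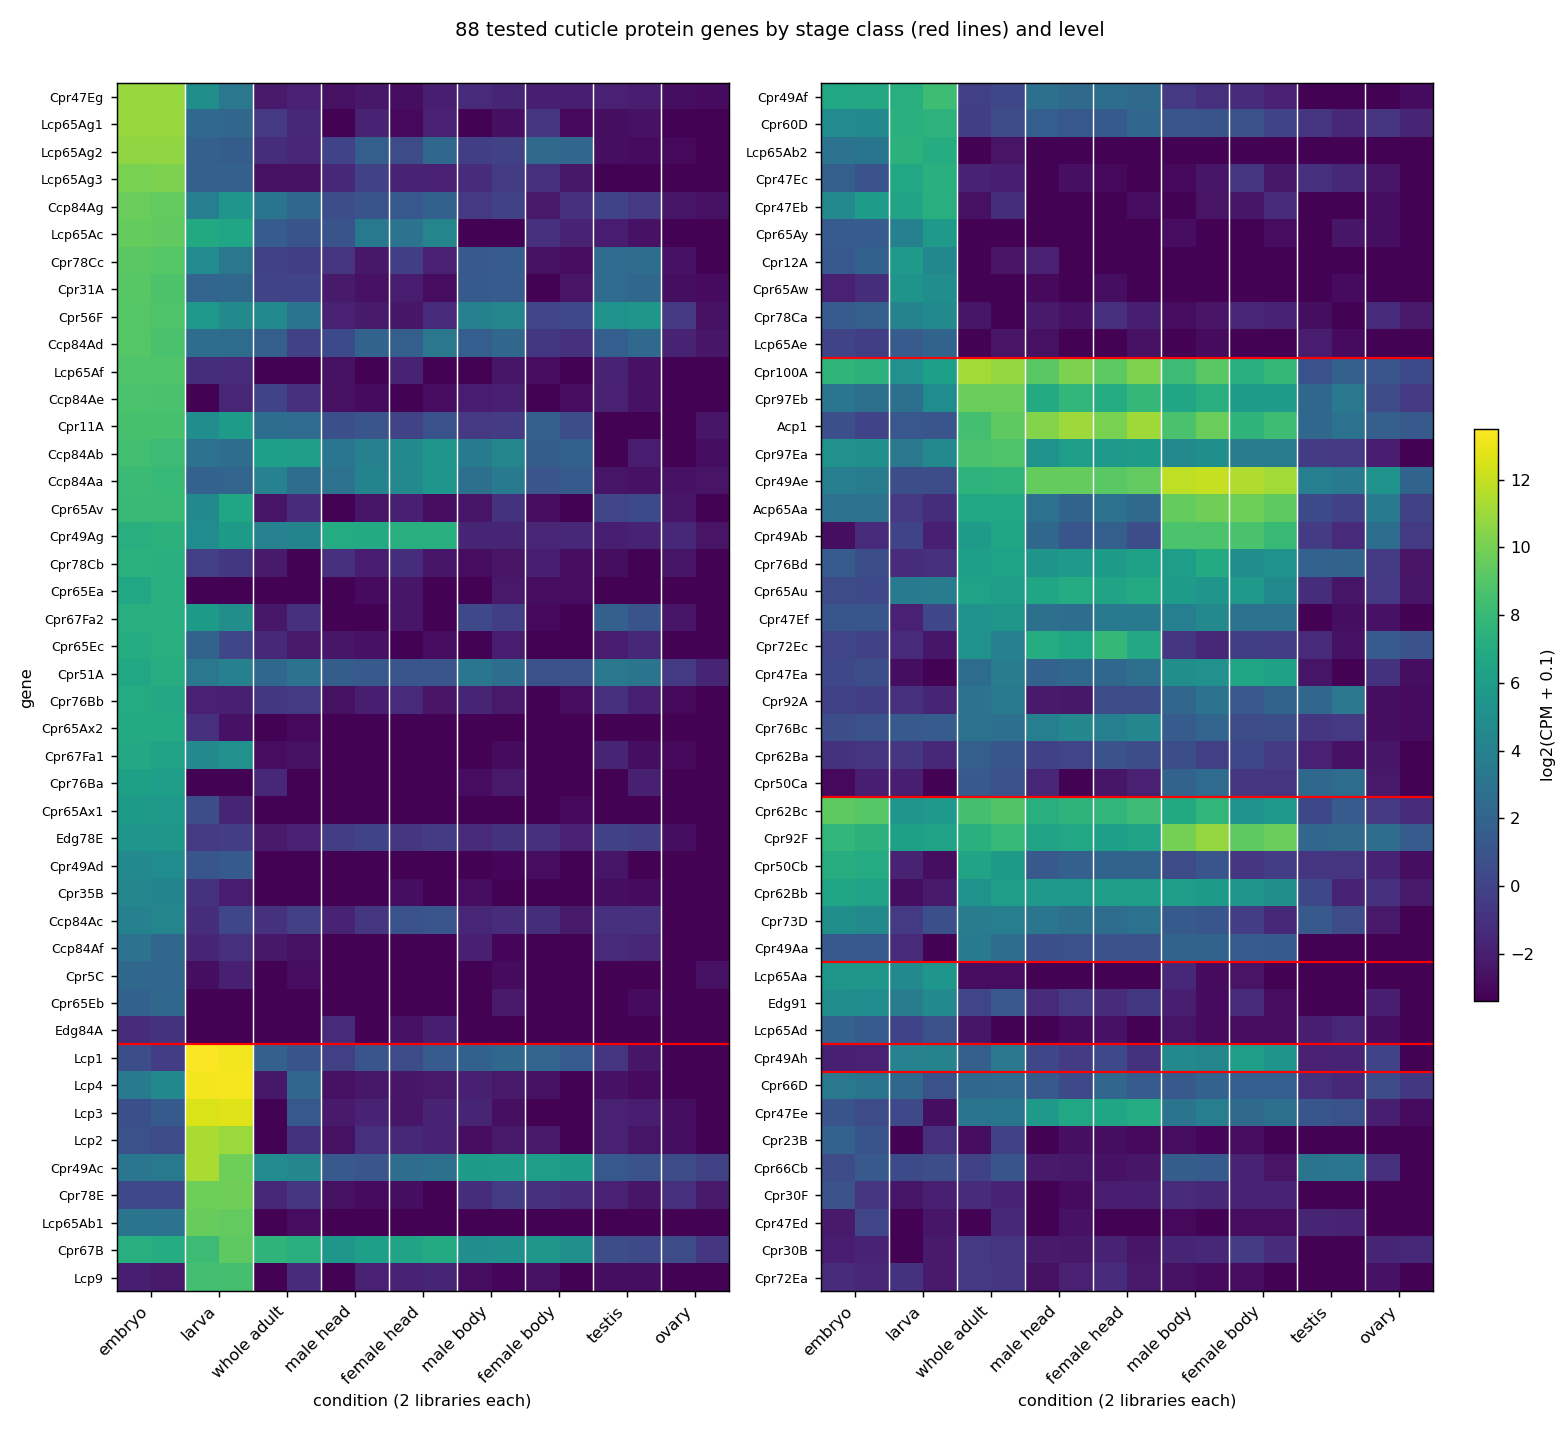
Level of each of the 88 tested genes, as log2(CPM + 0.1), in the 18 libraries, with genes in rows and red lines between the stage classes. The left panel starts with the 35 genes highest in embryos, followed by the 19 highest in larvae, and the right panel goes on with the larval genes and then the 16 highest in whole adults.

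In embryos the highest level per kb of gene span belonged to Cpr47Eg at 47E (3867 CPM per kb), followed by the neighbouring copies Lcp65Ag1 (3232), Lcp65Ag2 (2754) and Lcp65Ag3 (1861) and by Lcp65Ac (1214). Cpr47Eg (FBgn0086519, 2R, 11277957 to 11278445) was at 1897 and 1885 CPM in the embryo libraries. It was at 31.8 and 9.98 CPM in larvae and at 0.124 and 0.178 CPM in whole adults, so no 2 stages overlapped. Its log2 fold change was -6.50 ± 0.63 (SE) for larvae over embryos (adjusted p = 0.000184) and -7.09 ± 0.71 for whole adults over larvae (adjusted p = 0.000471).

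The Lcp65Ag genes carry a larval name but were read in embryos. Lcp65Ag1 was at 1868 CPM in both embryo libraries, at 5.16 and 4.49 CPM in larvae and at 0.559 and 0.258 CPM in whole adults (log2 fold change of larvae over embryos -8.60 ± 0.43, adjusted p = 2.95e-05). Lcp65Ag2 had 1647 and 1679 CPM in embryos and 3.29 and 2.85 CPM in larvae. Lcp65Ag3 had 1090 and 1158 CPM in embryos and 3.40 CPM in each larval library. The split of reads between these copies is uncertain, while their sum took 29.4% and 31.4% of the cuticle protein counts in embryos. Lcp65Af, next to Lcp65Ag1, was at 459 and 458 CPM in embryos and had 0 counts in both whole adult libraries, so it was at least 15092-fold higher in embryos than a count of 3 over the 2 whole adult libraries would allow.

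The 84A locus was embryonic throughout. The Ccp84A genes (cuticle cluster proteins) lie with Edg84A inside the Antennapedia complex, between the homeotic genes lab and pb. All 8 genes of this locus were called higher in embryos than in both other stages. Ccp84Ag stood highest with 792 and 697 CPM in embryos, against 13.8 and 45 CPM in larvae and 8.92 and 4.96 CPM in whole adults. Ccp84Ae was at 414 and 395 CPM in embryos, Ccp84Ad at 533 and 404 CPM, Ccp84Ab at 331 and 286 CPM and Ccp84Aa at 281 and 242 CPM. Ccp84Ac (16.2 and 19.1 CPM), Ccp84Af (7.95 and 4.49 CPM) and Edg84A (0.326 and 0.434 CPM) were far lower in the same libraries. The locus was not uniform after hatching. Ccp84Ab rose again to 71.6 and 65.5 CPM in whole adults from 7.66 and 6.25 CPM in larvae (log2 fold change 3.30 ± 0.21, adjusted p = 0.000114). Ccp84Aa also rose, by 1.58 ± 0.43 on the log2 scale (adjusted p = 0.0201), a call that was lost without whole adult replicate 1 or larva replicate 1, at 0.90 and 1.49. Ccp84Ag fell further, by 2.08 ± 0.56 (adjusted p = 0.02), which was lost without either whole adult replicate, at -2.38 and -1.72.

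The Edg genes were found as genes that imaginal discs switch on after a pulse of ecdysone, and none of the stages sampled here was a pupa. Edg78E was at 45.2 and 47.6 CPM in embryos, 0.602 and 0.713 CPM in larvae and 0.124 and 0.178 CPM in whole adults, and all 3 comparisons were called. Edg91 did not separate embryos (30 and 28.7 CPM) from larvae (13.4 and 26 CPM, log2 fold change -0.57, adjusted p = 0.27), but it did without larva replicate 2 (-1.13). It was lower in whole adults at 0.994 and 2.18 CPM (log2 fold change over larvae -3.63 ± 0.48, adjusted p = 0.00134). Edg84A had 69 counts over both embryo libraries and 0 in larvae and in whole adults, at least 11.2-fold higher in embryos than larvae by the limit of 3 counts. Its calls against embryos were lost when embryo replicate 1 or 2 was left out, at fitted log2 fold changes of -7.61 and -7.19. The call for whole adults was also lost without either whole adult library, at -7.67 and -7.60.

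Other embryonic genes stood outside these clusters. Cpr65Ea, Cpr65Eb and Cpr65Ec form a locus of their own at 65E (3L, 7086003 to 7093841), and all 3 were called higher in embryos. Cpr65Ea was at 108 and 156 CPM in embryos with 0 counts in larvae and whole adults, at least 3905-fold higher than in larvae by the same limit of 3 counts. Cpr76Ba, at 74.9 and 65.3 CPM, also had 0 counts in larvae and was at least 2067-fold higher in embryos. Cpr78Cc (568 and 533 CPM), Cpr31A (555 and 437 CPM), Cpr56F (534 and 461 CPM) and Cpr11A (385 and 377 CPM) were the highest of the rest in embryos. Cpr31A fell by 9.08 ± 0.28 on the log2 scale between embryos and whole adults (adjusted p = 1.18e-05). Lower genes could be as restricted. Cpr49Ad was at 25.9 and 27.6 CPM in embryos and 2.06 and 2.47 CPM in larvae, with 0 counts in whole adults, at least 882-fold lower than in embryos. Cpr35B, at 20.9 and 18.5 CPM in embryos and 0.43 and 0.143 CPM in larvae, also had 0 counts in whole adults and was at least 649-fold lower there. Cpr76Bb was at 128 and 109 CPM in embryos and below 0.6 CPM in both later stages, with a rise from larvae to whole adults (1.73 ± 0.27 on the log2 scale, adjusted p = 0.00255).

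In larvae 4 neighbouring genes held most of the signal. Lcp1 to Lcp4 encode the abundant, easily extracted proteins of the third-instar larval cuticle, Lcp1 and Lcp2 on the minus strand and Lcp3 and Lcp4 on the plus strand of one 8.4 kb stretch of 2R. Together they took 81.8% and 83.8% of the cuticle protein counts in the larval libraries. Per kb of span the order was Lcp4 (11495 CPM per kb), Lcp1 (8904), Lcp3 (7930) and Lcp2 (2317), followed by Lcp65Ab1 (1734).

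Lcp1 (FBgn0002531) was at 10697 and 9408 CPM in larvae, against 1.5 and 0.705 CPM in embryos and 3.35 and 1.84 CPM in whole adults. Its rise from embryos was 13.16 ± 0.73 on the log2 scale (adjusted p = 3.36e-05). Lcp4 (FBgn0002535) was at 9456 and 10063 CPM in larvae and already at 11.8 and 22.1 CPM in embryos, the highest embryonic level of the locus. Lcp3 was at 5900 and 6565 CPM in larvae and Lcp2 at 2617 and 1966 CPM, with no other stage above 2.5 CPM for either. The pseudogene Lcp1Psi, which lies between Lcp1 and Lcp2, was at 0.0861 and 0.0713 CPM in larvae and was too low to be tested.

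The whole adult libraries disagreed on the larval genes. Lcp3 had 0 counts in whole adult replicate 1 and 2.34 CPM in replicate 2, Lcp4 had 0.103 and 4.44 CPM, Lcp2 had 0 and 0.436 CPM, and Lcp9 had 0 and 0.317 CPM. Replicate 2 was the higher library for each of these genes, while Lcp1 was higher in replicate 1. The larval marker genes summed to 140 CPM in replicate 1 and 213 CPM in replicate 2, and their part in the difference was not tested. For whole adults over embryos the log2 fold change of Lcp3 was -0.76 (adjusted p = 0.611) and ranged from -9.99 without replicate 2 to 0.20 without replicate 1. That of Lcp4 was -2.90 (adjusted p = 0.0731), -7.33 without replicate 2 and -1.96 without replicate 1, both then called.

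Genes at other loci were highest in larvae too, by margins that varied. Cpr78E was at 874 and 920 CPM in larvae, 1.14 and 1.18 CPM in embryos and 0.248 and 0.515 CPM in whole adults (log2 fold change of larvae over embryos 9.59 ± 0.40, adjusted p = 2.39e-05). Lcp9 was at 356 and 364 CPM in larvae and at no more than 0.157 CPM in embryos. Lcp65Ab1 was at 748 and 685 CPM and its copy Lcp65Ab2 at 172 and 131 CPM in larvae, with both near 8 CPM in embryos. Lcp65Ab1 had 2 counts over both whole adult libraries, a ratio of 35438 between larvae and whole adults with a 95% counting interval of 9810 to 292631. Cpr49Ac had 2590 and 862 CPM in larvae, a wide gap between the libraries, and 9.31 and 10.9 CPM in embryos (log2 fold change 7.41 ± 0.64, adjusted p = 0.00012). Cpr65Aw and Cpr65Ay were lower, between 16.5 and 53.7 CPM, with 0 counts in whole adults. Lcp65Ae was a weak case: 2.69 and 4.06 CPM in larvae against 0.967 and 0.738 CPM in embryos (log2 fold change 1.98 ± 0.68, adjusted p = 0.038). That call was lost without larva replicate 2 (1.65) and without either embryo replicate (2.19 and 1.79), and also with DESeq2's size factors (1.78) and with the replicate block (1.91).

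In whole adults Cpr100A led per kb of span (1221 CPM per kb), ahead of Cpr97Eb (578), Acp1 (498), Cpr62Bc (237) and Acp65Aa (150). Cpr100A (FBgn0039805, 3R, 30867521 to 30869184) was at 2234 and 1828 CPM in whole adults, 205 and 176 CPM in embryos and 36.1 and 70.6 CPM in larvae. Its rise from larvae was 5.25 ± 0.42 on the log2 scale (adjusted p = 0.000202). Cpr97Eb was at 831 and 818 CPM and its neighbour Cpr97Ea at 401 and 459 CPM in whole adults, against at most 35 CPM in any earlier library. Cpr100A, Cpr97Eb and Acp1 together held 62.01% and 58.5% of the cuticle protein counts in whole adults.

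Both genes named for the adult cuticle rose steeply from larvae to whole adults, while embryos held more Acp65Aa than larvae did. Acp1 (FBgn0014454, 2L, 7740562 to 7741537) was at 347 and 626 CPM in whole adults, 1.53 and 0.879 CPM in embryos and 2.15 and 1.95 CPM in larvae. It rose by 7.89 ± 0.48 on the log2 scale over larvae (adjusted p = 9.77e-05). Acp65Aa (FBgn0020765) lies inside the 65A cluster and was at 107 and 101 CPM in whole adults, 7.33 and 7.27 CPM in embryos and 0.559 and 0.333 CPM in larvae. It rose by 7.85 ± 0.30 over larvae (adjusted p = 2.97e-05). Cpr49Ab rose by 8.90 ± 0.96 over embryos (adjusted p = 0.000316), from 0.045 and 0.282 CPM to 60.5 and 99.0 CPM. Cpr76Bd, the longest of the coding genes, was at 71.4 and 85.6 CPM in whole adults and below 3 CPM in both earlier stages.

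A few genes skipped the larva. Cpr50Cb was at 139 and 128 CPM in embryos, 0.194 and 0.0475 CPM in larvae and 86.9 and 56.7 CPM in whole adults, log2 fold changes of -10.05 ± 0.51 and then 9.16 ± 0.50 (adjusted p = 2.99e-05 and 7.01e-05). Cpr62Bb followed the same course, from 92.0 and 81.0 CPM in embryos to 0.043 and 0.119 CPM in larvae and 37.3 and 66.8 CPM in whole adults. Cpr49Aa had a lower level, at 2.41 and 2.3 CPM in embryos, 0.28 and 0 CPM in larvae and 12.4 and 6.25 CPM in whole adults. Cpr62Bc, the neighbour of Cpr62Bb, kept 45 and 52.9 CPM in larvae between 648 and 529 CPM in embryos and 366 and 491 CPM in whole adults. For none of Cpr50Cb, Cpr62Bb and Cpr62Bc did embryos and whole adults pass the thresholds for a call, with log2 fold changes of -0.89, -0.73 and -0.46 (adjusted p = 0.0459, 0.0821 and 0.143). The reverse pattern, low in embryos alone, was called for 1 gene, Cpr49Ah, at 0.169 and 0.174 CPM in embryos, 16.9 and 17.8 CPM in larvae and 3.23 and 10.1 CPM in whole adults.

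**Figure D3:**
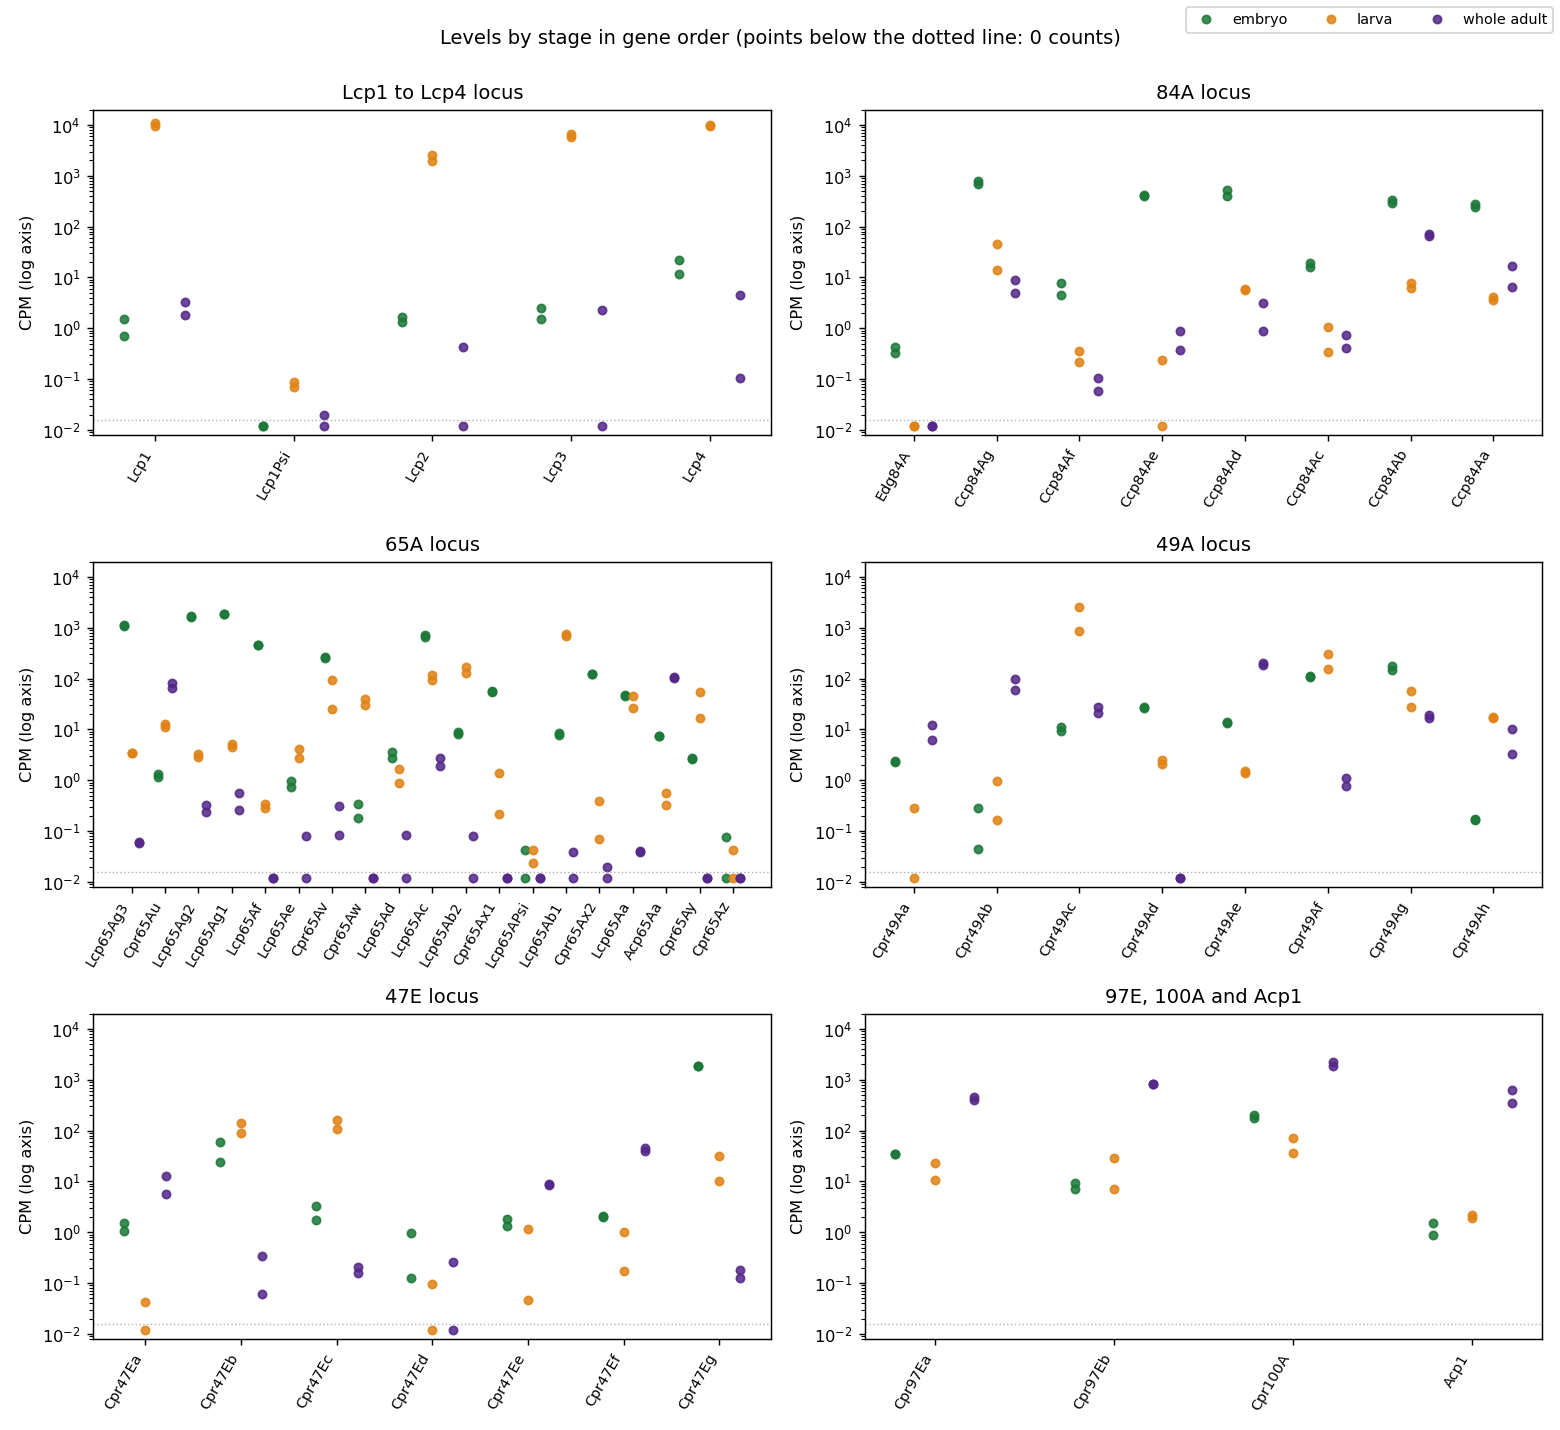
Level in CPM (log axis) of the genes of 5 clusters in their order along the chromosome, and of Cpr97Ea, Cpr97Eb, Cpr100A and Acp1, in the 2 libraries of each stage. The Lcp1 to Lcp4 locus is larval and the 84A locus embryonic, while the 65A, 49A and 47E loci mix genes of all 3 stages. Points under the dotted line are libraries with 0 counts.

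The large clusters differed in how uniform they were. At 65A, 8 genes were highest in embryos, 5 in larvae and 2 in whole adults, 2 were higher in embryos and larvae than in whole adults, and 2 were not tested. Neighbours there could differ sharply. Cpr65Au, between Lcp65Ag3 and Lcp65Ag2, was at 1.35 and 1.18 CPM in embryos, 11.1 and 12.6 CPM in larvae and 82.4 and 64.7 CPM in whole adults, the opposite order to the genes on either side. Acp65Aa lies between Lcp65Aa, which was at 0.0414 and 0.0396 CPM in whole adults, and Cpr65Ay, which had 0 counts there. Lcp65Ad, at 3.63 and 2.75 CPM in embryos and 0.903 and 1.64 CPM in larvae, sits beside the far higher Lcp65Ac, at 726 and 670 CPM and 118 and 92 CPM. Lcp65Ab1 and Cpr65Ax2 are separated by less than 100 bases and lie on opposite strands, and the first was highest in larvae and the second in embryos (122 and 123 CPM). At 49A and 47E too, genes highest in embryos, in larvae and in whole adults were all present. Over all clusters, 22 of the 50 neighbouring pairs with both genes tested shared their stage class (44%), while 24.4% of all pairs of tested genes did. This is a description, since neighbours include recent copies.

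Genes of the adult class were longer. The median was 243 codons over the 16 genes highest in whole adults, 144 over the 35 highest in embryos and 126 over the 19 highest in larvae. Of the 16 adult genes 10 had 3 or more exons, against 2 of the 35 embryonic and 2 of the 19 larval genes.

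Genes of cuticle assembly and tanning were compared across the stages too. Of a list of 25 such genes 24 were tested, and y, wholly covered by other genes, could not be read. From embryos to larvae 1 rose and 4 fell, from larvae to whole adults 11 rose and 1 fell, and 10 were higher and 2 lower in whole adults than in embryos. The shares of all tested genes were 31.7% and 19.3%, 23.1% and 17.8%, and 29.7% and 19.0% in the same order. Cht5, a chitinase that takes old cuticle apart, fell by 3.53 ± 0.46 on the log2 scale from embryos to larvae and rose by 4.71 ± 0.49 to whole adults (adjusted p = 0.000688 and 0.000533). Cda5, a chitin deacetylase, fell by 3.33 ± 0.43 and rose by 4.13 ± 0.45 (adjusted p = 0.000649 and 0.00063). The transmembrane protein dyl, which shapes denticles and bristles, fell by 5.23 ± 0.33 after the embryo (adjusted p = 4.3e-05). The larval libraries disagreed on tanning genes. The tyrosine hydroxylase ple, the first enzyme of tanning, was at 254.9 and 11.5 CPM in larvae and 2284 and 1725 CPM in whole adults, a rise of 3.91 ± 1.22 (adjusted p = 0.0328). The size of that rise thus depends on the larval library. Larva replicate 1 was also the higher for e (147 and 2.23 CPM), Ddc (335.5 and 36.8 CPM) and b (49.7 and 6.7 CPM). The chitin-binding protein obst-E, which shapes the larval cuticle for the puparium, fell by 2.76 ± 0.25 (adjusted p = 0.000342). Against embryos, the aspartate decarboxylase b was higher in whole adults by 5.51 ± 0.91 and the elastic protein resilin by 4.85 ± 0.70 (adjusted p = 0.00212 and 0.00112).

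A list of 14 ecdysone-response and epidermal regulators had 12 tested genes, since usp and br are wholly covered by other genes. Other genes also cover 87.4% of the span of Hr3 and 58.2% of that of ftz-f1, so their values rest on the remainder. From embryos to larvae 1 rose and 4 fell, from larvae to whole adults 2 rose and 1 fell, and 2 were higher and 4 lower in whole adults than in embryos, beside the same shares of all tested genes. With 12 genes these counts are not read further. The nuclear receptors Hr3 and ftz-f1, which act in sequence after an ecdysone pulse, were lower in larvae than in embryos, with log2 fold changes of -4.11 ± 0.70 and -3.84 ± 0.34 (adjusted p = 0.00227 and 0.000137). Hr38, a receptor needed for a firm adult cuticle, was higher in whole adults than in larvae (1.88 ± 0.49, adjusted p = 0.0178). The bZIP gene vri was higher in larvae than in embryos (4.51 ± 0.22, adjusted p = 2.94e-05).

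Some cuticle protein genes separated adult heads from bodies by large factors, while the number called was not above that of all genes in males. In the adult parts 62 of the 100 genes were tested. Genes that passed the filter on low counts only through 1 high part had to differ between parts. The counts of calls in parts thus describe the tested genes and not the family as a whole. In males 7 were higher in heads and 18 lower, where 20.9% of all tested genes were higher and 30.6% lower. In females 21 were higher in heads and 9 lower, against 19.2% and 25.6%. In males the share called higher was thus below that of all genes and the share called lower close to it, and in females the first was above and the second below. The genes called higher in both sexes were Acp1, Cpr47Ee, Cpr49Af, Cpr49Ag, Cpr72Ec, Cpr76Bc and Lcp65Ac, which are all 7 of the male list and 33.3% of the female list. The 8 called lower in both were Acp65Aa, Cpr47Ea, Cpr49Ab, Cpr49Ac, Cpr49Ah, Cpr56F, Cpr78E and Cpr92F, 44.4% of the male and 88.9% of the female list. The overlap of the sexes was not worked out over all tested genes, so it is not read as a trait of this family. The median log2 fold change of heads over bodies was -0.24 in males and 1.05 in females over the tested cuticle protein genes, and -0.09 and -0.36 over all genes.

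Cpr49Ag had the clearest head pattern. It was at 130 and 122 CPM in male heads and 144 and 148 CPM in female heads, and at no more than 0.257 CPM in any body library. The log2 fold change was 9.18 ± 0.49 in males (adjusted p = 1.45e-05) and 9.21 ± 0.49 in females (adjusted p = 5.02e-06). Cpr72Ec, reported in the corneal lens of the compound eye, was at 136 and 93 CPM in male heads, 227 and 112 CPM in female heads and below 1 CPM in all 4 body libraries (8.19 ± 0.74 and 7.86 ± 0.72 on the log2 scale, adjusted p = 5.29e-05 and 3.18e-05). Cpr66D, reported in the same lens, was not called in either sex: heads held 2.35 and 1.18 CPM in males and 4.45 and 2.79 CPM in females, bodies between 2.42 and 3.72 CPM. Cpr47Ee was higher in heads by 2.77 ± 0.50 in males and 4.18 ± 0.53 in females (adjusted p = 0.00153 and 0.000198).

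Per kb of span Acp1 led in both head conditions (1773 CPM per kb in males, 1690 in females), before Cpr100A (515 and 544), Cpr49Ae (255 and 219) and Cpr49Ag (173 and 200). Acp1 was at 1332 and 2129 CPM in male heads, 1087 and 2212 CPM in female heads, 395 and 850 CPM in male bodies and 190 and 302 CPM in female bodies. In each head pair replicate 2 was the higher library. The groups did not overlap, and the log2 fold change was 1.48 ± 0.51 in males (adjusted p = 0.0331) and 2.75 ± 0.53 in females (adjusted p = 0.00227). Lcp65Ac, embryonic by stage, was still read in heads at 1.93 and 10.8 CPM in males and 7.94 and 19.4 CPM in females, with 0 counts in both male bodies and 0.383 and 0.198 CPM in female bodies. Male head replicate 2 carried most of the 680 counts in male heads.

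Bodies were led by Cpr49Ae, Acp65Aa, Acp1, Cpr92F and Cpr49Ab in both sexes, in different orders per kb. Cpr49Ae, Acp65Aa, Cpr49Ab and Cpr92F together held 81.4% and 75.6% of the cuticle protein counts in male bodies and 83.8% and 80.0% in female bodies. In heads they held between 13.44% and 22.6%. Acp65Aa was at 719 and 917 CPM in male bodies, 887 and 644 CPM in female bodies and between 4.04 and 7.63 CPM in heads (log2 fold change of heads over bodies -7.13 ± 1.14 in males and -6.94 ± 1.13 in females, adjusted p = 0.000882 and 0.000885). Cpr49Ab was at 424 and 414 CPM in male bodies and 406 and 253 CPM in female bodies, against 1.48 to 4.87 CPM in heads. Cpr92F was at 1020 and 1857 CPM in male bodies, 627 and 814 CPM in female bodies and between 71.6 and 104 CPM in heads. Cpr49Ae was high everywhere in the soma, at 3782 and 4100 CPM in male bodies, 2805 and 2335 CPM in female bodies and between 575 and 740 CPM in heads. It was called lower in heads in males (-2.42 ± 0.77, adjusted p = 0.0247), and in females (-2.02, adjusted p = 0.053) only in the fit blocked on replicate number (adjusted p = 0.0422).

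**Figure D4:**
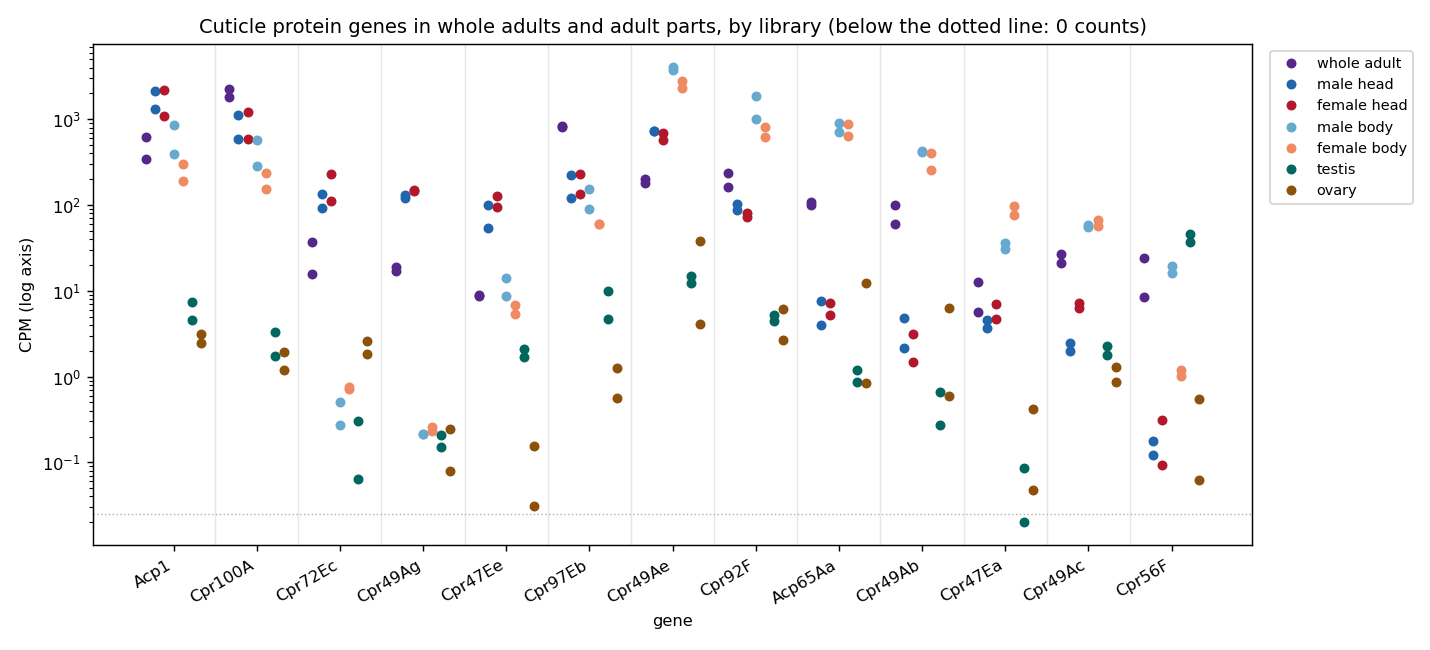
Level in CPM (log axis) of 13 cuticle protein genes in the 2 libraries of whole adults and of each adult part. Cpr72Ec and Cpr49Ag stand above 90 CPM in heads and below 1 CPM in bodies. Acp65Aa and Cpr49Ab are far higher in bodies than in heads, and Cpr56F is highest in testes. Points under the dotted line are libraries with 0 counts.

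Whole adults and adult parts were not tested against each other, because their protocols differ, and their levels are set side by side only. Cpr97Eb was at 831 and 818 CPM in whole adults and between 59.4 and 228 CPM in heads and bodies. Cpr97Ea was at 401 and 459 CPM and between 12.9 and 63.3 CPM. The body genes went the other way. Acp65Aa was at 107 and 101 CPM in whole adults, below the 644 to 917 CPM of bodies, and Cpr49Ae at 183 and 204 CPM, below all heads and bodies. The uncertain age of the whole adults and the protocol cannot be told apart here.

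Between female and male heads 0 of the 62 tested genes were called higher and 0 lower, where 0.0238% of all tested genes were higher and 0.00794% lower in female heads. By the same edgeR test 5 genes had an unadjusted p under 0.05, and DESeq2's Wald test called 2 higher in females and 0 lower. Neither was set beside a count over all tested genes. Cpr92A was at 1.34 and 1.35 CPM in female heads and 0.119 and 0.105 CPM in male heads (log2 fold change 3.57, adjusted p = 0.294). Cpr49Ac was at 6.25 and 7.16 CPM against 2.43 and 1.99 CPM (1.60, adjusted p = 0.294). In both genes the libraries of each sex lay apart from those of the other. With 2 libraries per sex this can easily arise without a true difference, and how many of all genes do so was not counted.

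Between the bodies 2 genes were higher and 15 lower in females, where 24.4% of all tested genes were higher and 27.7% lower, so the share called lower was near that of all genes. The median log2 fold change was -0.71, beside -0.18 over all genes. The genes lower in female bodies included Cpr31A (-5.94 ± 0.90, adjusted p = 0.000847), Cpr78Cc (-5.66 ± 1.10, adjusted p = 0.00257), Cpr66Cb (-4.28 ± 1.07, adjusted p = 0.00821), Cpr56F (-4.01 ± 0.75, adjusted p = 0.00215) and Cpr50Ca (-3.27 ± 1.03, adjusted p = 0.0233). Lcp3, a larval gene by stage, and Cpr67Fa2 were also among the 4 largest falls. The call of Lcp3 was lost without either female body library (-5.54 and -6.11) and without male body replicate 1 (-4.95). Acp1 was lower by a smaller step (-1.34 ± 0.51, adjusted p = 0.0468), as was Cpr62Bc (-1.88 ± 0.46, adjusted p = 0.00759). The 15 became 9 without female body replicate 1, 8 without male body replicate 2, 23 without female body replicate 2 and 26 without male body replicate 1. With DESeq2's size factors or its Wald test it was 28, and 7 when 10 counts were asked of every library. The 2 genes higher in females were Lcp65Ac (30 counts against 0) and Lcp65Ag2, at 5.35 and 4.39 CPM against 0.723 and 0.848 CPM (2.63 ± 0.78, adjusted p = 0.0177). With a body library left out, 0 or 1 genes were called higher in females.

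Several genes of that male list were read in testes. Cpr56F (FBgn0034499, 2R, 20288371 to 20291945), an embryonic gene by stage, was at 37.2 and 45.8 CPM in testes, 16.2 and 19.5 CPM in male bodies, 1.02 and 1.19 CPM in female bodies and no more than 0.308 CPM in heads. Cpr66Cb was at 8.44 and 9.36 CPM in testes, 2.89 and 2.47 CPM in male bodies and at most 0.192 CPM in female bodies. Cpr78Cc was at 5.70 and 6.23 CPM in testes and 2.38 and 2.78 CPM in male bodies, and Cpr31A at 5.57 and 4.63 CPM and 2.51 and 2.58 CPM. Cpr50Ca, Cpr51A and Cpr67Fa2 had the same order of means, testes above male bodies and male bodies above female bodies. In all 7 the difference between male bodies and testes was not called, with log2 fold changes from -1.73 to -0.19. The male bodies themselves held testis marker RNA, as given above, and its part in these levels was not tested.

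The genes beside these could carry reads of their own. CkIIbeta2 covers part of Cpr56F and, being wholly covered, has no count of its own. CG30197 covers part of Cpr51A in the same way. The gene 965 bases from Cpr31A, which has no symbol in the tables used, was at 4715 CPM in testes on average. Pex2, 456 bases from Cpr66Cb, was at 1.95 CPM in testes and lower there than in the bodies. How far reads of neighbouring genes enter these counts was not tested, and the cuticle protein itself was not measured.

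Gonads as a whole held little of this family. Genes that passed the filter on low counts only through bodies had to come out higher there than in gonads. With male bodies over testes 33 of the 62 tested genes were higher and 1 lower, against 24.0% and 2.89% of all tested genes. With female bodies over ovaries 36 were higher and 0 lower, against 19.6% and 0.127%. In that comparison edgeR gave 44 genes an unadjusted p under 0.05 in either direction, a count that was not taken over all tested genes. Both DESeq2's Wald test and the fit blocked on replicate number called 1 gene lower in bodies. The 1 gene higher in testes than in male bodies was Cpr47Ed, with 23 counts against 1, a ratio of 21.7 with a 95% counting interval of 3.53 to 895, and the call was lost in DESeq2's Wald test and without any 1 of the 4 libraries (log2 fold changes of -6.84 to -3.48). Among the 59 genes with 10 counts in both libraries of some adult part, the highest mean stood in testes for 13, in female heads for 23, in male bodies for 11, in male heads for 6, in female bodies for 6 and in ovaries for none.

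The ovary libraries disagreed. Cpr49Ae was at 37.7 CPM in ovary replicate 1 and 4.06 CPM in replicate 2, Acp65Aa at 12.3 and 0.832 CPM, and Cpr49Ab at 6.33 and 0.596 CPM. Replicate 1 was the higher in each, and these are the leading genes of female bodies. The muscle genes Mhc, Act88F, fln and Mlc2 summed to 447 CPM in ovary replicate 1 and 180 CPM in replicate 2, and photoreceptor genes to 48.3 and 17.4 CPM. Markers of male organs did likewise: testis genes summed to 39.5 and 4.17 CPM there, and Acp26Aa was at 29.7 and 4.88 CPM. Testis genes were also higher in replicate 1 of female bodies (15.5 and 0.909 CPM) and female heads (7.67 and 1.16 CPM). Ovary genes went the other way in ovaries, at 1078 and 1420 CPM. What part the sources of these marker RNAs have in the cuticle gene levels was not tested. Cpr72Ec differed: it was at 2.59 and 1.84 CPM in ovaries and at 0.748 and 0.711 CPM in female bodies, a log2 fold change of bodies over ovaries of -1.60 that was not called (adjusted p = 0.0905) but was with the replicate block (adjusted p = 0.0089), and it was also the gene that DESeq2's Wald test called.

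The head over body change differed between the sexes for 11 genes, all towards a higher value in females, and for none the other way, against 15.7% and 19.1% of all tested genes. The share called higher was thus near that of all genes. The median difference was 1.10 on the log2 scale over the 62 cuticle protein genes and 0.17 over all genes. At the 84A locus, Ccp84Aa was at 23.6 and 44.7 CPM in female heads and 1.98 and 2.47 CPM in female bodies, but at 7.72 and 18.6 CPM in male heads and 6.94 and 12.2 CPM in male bodies. Its change was 3.94 ± 0.54 in females and 0.46 in males, a difference of 3.48 ± 0.70 (adjusted p = 0.007). Ccp84Ab and Ccp84Ad differed likewise, by 3.70 ± 0.98 and 4.27 ± 1.02 (adjusted p = 0.0197 and 0.0135). Cpr62Bc, at 214 and 294 CPM in female heads and 38.6 and 50.5 CPM in female bodies, differed by 2.42 ± 0.64 (adjusted p = 0.0197).

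Cpr92A had the smallest adjusted p of these. It was at 1.34 and 1.35 CPM in female heads, 2.19 and 3.89 CPM in female bodies, 0.119 and 0.105 CPM in male heads and 4.51 and 8.14 CPM in male bodies, a difference of 4.63 ± 0.80 (adjusted p = 0.00372). The count of 11 became 7 without female head replicate 1, 6 without female head replicate 2, 17 without male body replicate 1, 7 without male body replicate 2 and 7 without male head replicate 2. It was 22 with DESeq2's Wald test, 19 with its size factors and 3 with 10 counts in every library. Among the 11 genes, Cpr31A, Cpr51A, Cpr56F, Cpr67Fa2, Cpr78Cc and Cpr92A had their highest adult part mean in testes. So did 13 of all 59 cuticle protein genes with 10 counts in both libraries of some adult part. Ccp84Aa, Ccp84Ab, Ccp84Ad and Cpr62Bc were highest in female heads, and Cpr49Ac in female bodies. The male body libraries of this contrast held testis marker RNA. Ovary marker RNA stood in the female bodies of the same contrast, and the part of either in these differences was not tested.

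**Figure D5:**
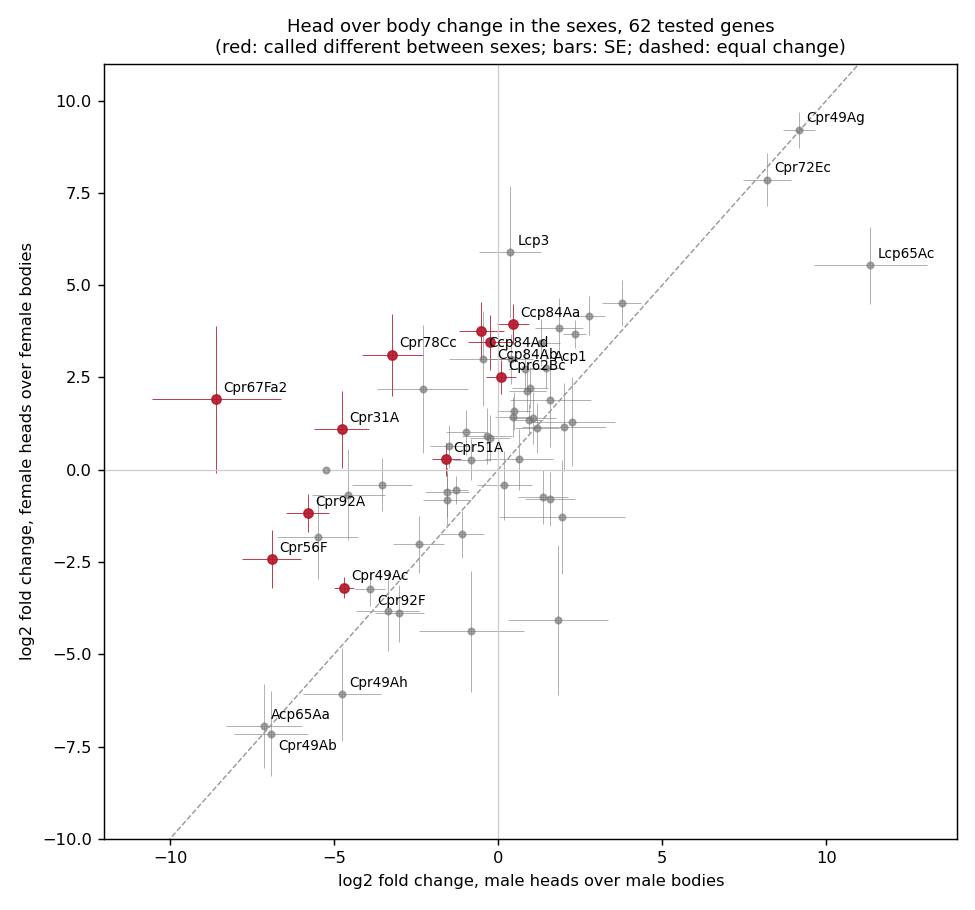
Log2 fold change of heads over bodies in females (vertical) against males (horizontal) for the 62 tested genes, with bars of 1 standard error and a dashed line of equal change. The 11 genes in red, called different between the sexes, all lie above the line. Values of genes with 0 counts in a group, such as Lcp65Ac and Cpr67Fa2 in males, are fitted values and not bounds.

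Other genes of cuticle building were compared in the same parts. Of the 24 tested genes of assembly and tanning, 5 were higher and 1 lower in male heads than bodies, beside 20.9% and 30.6% of all tested genes, and 15 were higher and 0 lower in female heads than bodies, beside 19.2% and 25.6%. The share called higher in male heads was that of all genes. The hydrolase tan (t), which also recycles histamine in photoreceptors, was higher in heads by 3.03 ± 0.25 in males and 4.64 ± 0.27 in females (adjusted p = 3.81e-05 and 6.14e-06), and Ddc, which makes dopamine for tanning, by 2.03 ± 0.40 and 3.02 ± 0.42 (adjusted p = 0.00249 and 0.000334). The gene b was lower in male heads than bodies (-1.68 ± 0.44, adjusted p = 0.0101). Between the bodies 2 of the list were higher and 7 lower in females, near the 27.7% lower of all genes, and between the heads 0 were called. All 18 that were called between bodies and testes, and all 18 between bodies and ovaries, were higher in bodies. Over all tested genes 24.0% were higher and 2.89% lower in bodies than testes, and 19.6% and 0.127% in bodies than ovaries. Few genes of any kind were thus called lower in bodies, and the direction of the 18 is not particular to this list. Of the 12 tested regulators 7 were higher in male heads and 5 in female heads, beside 20.9% and 19.2% of all tested genes. They were led by Hr3 (5.04 ± 0.37 and 5.61 ± 0.38, adjusted p = 2.48e-05 and 8.38e-06), a receptor that is also used outside the moults. Hr3 was read only over the small part of its span that no other gene covers.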

How the data were processed

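RNA-seq counts per gene were used from 18 libraries, 2 for each of 9 conditions. The authors deposited 1 table of raw read counts; the submitters' processing notes name cutadapt 1.15, TopHat2 2.1.1 and dm6, and the counting tool is not given in the sources used here. A gene's span holds its introns, and positions covered by another gene carried no counts. The stage libraries were unstranded and the adult part libraries strand-specific, so the 6 and the 12 libraries were fitted apart.

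Counts were analysed in R 4.3.3 with edgeR 4.0.16 (TMM scaling, filterByExpr with a minimum count of 10, quasi-likelihood test, Benjamini-Hochberg adjustment over 12335 genes in stages and 12597 in parts). CPM were computed on TMM-scaled sizes, and levels were compared between genes per kb of span. DESeq2 1.42.0 gave an alternative. Tables and figures used Python 3.11.15. The edgeR step was also run on simulated counts with known changes. Counting intervals and the floor of 3 counts per group cover counting error only, since reads carry no molecular identifiers.

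Same-numbered adult part libraries deviated together: the correlation was above 0.1 in all 15 group pairs (0.279 to 0.672). In the stages it was between -0.047 and 0.123. The adult parts were therefore also fitted with the replicate number as a block. Other alternatives were other scalings, other filters on low counts, only the 2 groups compared, and each library left out. The naming rule took the 8 called genes per direction with the largest change per stage comparison, and the 4 per comparison of parts. It added the 5 highest per kb per condition, the 3 largest differences between sexes and 3 per direction of each other list. The Lcp1 to Lcp4, Lcp9, Ccp84A, Lcp65A, Edg, Pcp and Acp genes were taken in any case. The values of some are not printed, such as Lcp3 for female heads over bodies and Cpr47Ea for bodies over gonads. Further genes were named after their values were seen, among them Cpr11A, Cpr47Ee, Cpr51A, Cpr66Cb, Cpr66D, Cpr92A and Cpr97Ea. The members and gene lists were chosen with earlier results of these data known.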

Additional observations from a re-analysis of the deposited data

Results flagged for a closer look

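For 11 cuticle protein genes the head over body change differed between the sexes by the interaction term of edgeR's quasi-likelihood test, each time with the higher value in females. This is near the 15.7% of all tested genes called in that direction. The difference, females minus males on the log2 scale, was 6.337 for Cpr78Cc (adjusted p = 0.0109), 5.862 for Cpr31A (adjusted p = 0.0113) and 10.493 for Cpr67Fa2 (adjusted p = 0.0319). The value of Cpr67Fa2 was fitted against male heads with 0 counts and is no bound. The call of Cpr67Fa2 was lost without female head replicate 1 (6.28), and those of Cpr78Cc and Cpr31A without the same library (5.01 and 4.75). For Cpr67Fa2 it was also lost without female body replicate 2 (10.23), male body replicate 1 (10.83), male head replicate 1 (10.54) or male head replicate 2 (10.41).

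At the 84A locus the difference was 4.267 for Ccp84Ad, 3.697 for Ccp84Ab and 3.479 for Ccp84Aa. Cpr92A stood at 4.626, Cpr56F at 4.491, Cpr62Bc at 2.425, Cpr51A at 1.862 and Cpr49Ac at 1.495. Of these, Cpr51A lay closest to the threshold (adjusted p = 0.0477). Cpr49Ac was called lower in heads than in bodies in both sexes, by more in males (-4.69) than in females (-3.19). Cpr56F too was called lower in heads in both sexes.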

How the results depend on the processing

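Counts of called genes are given as higher and then lower. With 10 counts asked of every library, fewer genes were tested and the calls fell to 8 and 23 for larvae over embryos, 15 and 15 for whole adults over larvae, 18 lower for whole adults over embryos, 0 and 6 for male heads over bodies, 6 and 4 for female heads over bodies, 0 and 7 for female over male bodies, 12 and 0 for male bodies over testes, 13 higher for female bodies over ovaries, and 3 higher for the difference of head over body changes between sexes. With only the 2 groups compared, 11 were higher in male heads than bodies, 4 higher in female than male bodies and 8 lower in male bodies than testes. DESeq2's size factors gave 28 lower in female than male bodies, 2 lower in male bodies than testes and 19 higher for the difference between sexes. DESeq2's Wald test gave 28 lower in female than male bodies, 2 higher in female than male heads, 4 lower in male bodies than testes, 1 lower in female bodies than ovaries, and 22 and 1 for the difference between sexes. With no filter on low counts 0 were lower in male bodies than testes.

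Leaving out 1 library gave 0 to 1 genes higher and 8 to 26 lower in female than male bodies, 0 lower in male bodies than testes, and 6 to 17 higher and 0 to 1 lower for the difference between sexes. Fold changes turned in sign for Lcp3 (-9.991 to 0.205) and Lcp9 (-6.158 to 1.168) in whole adults over embryos and for Ccp84Ac (-0.836 to 0.759) in whole adults over larvae, on which the whole adult and larval libraries disagree. The cause of the other shifts was not tested.

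The replicate block called 1 gene lower in female bodies than ovaries and changed no other count of calls by over 1.5 times. In the stages the same-numbered libraries were not paired, and the block gave 20 higher and 54 lower for larvae over embryos.

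With 2 libraries per condition the spread is poorly known, and 8 genes could not be read at all. Genes under the floor of 3 counts were not detectable at this depth, which does not show that they are absent.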
